A study of Mus musculus with 18 samples.

Results

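Excitatory neurons of the cerebral cortex were followed through 8 genes: Slc17a7 and Camk2a, which most of these cells use, Cux1 and Cux2 of the upper layers, Rorb of layer 4, Fezf2 and Tbr1 of the deep layers, and Neurod6, which is shared across layers. The genes were picked by symbol, and each had exactly 1 row in each of 3 tables of 13784 genes. Bulk RNA was sequenced from 18 cortex samples: 5 from mice given lipopolysaccharide (LPS, a bacterial outer membrane component that provokes innate immune signalling) and 4 from mice given saline, all of them conditional knockouts (cKO) that lack the chromatin remodeller gene Chd8 in astrocytes, then 5 from control mice given LPS and 4 from controls given saline. Where the labels do not say that samples came from separate mice, p-values measure only the spread between these samples. LPS was injected into the abdomen at 5 mg/kg, the mice were 4 to 6 months old, and brains were taken 72 hours later; the driver of the recombinase and the alleles of the controls are not given in the sources used here. The group labels name astrocytes as the site of the knockout. Whether the neurons that use the 8 genes kept Chd8 was not checked here. The series asked what loss of Chd8 in astrocytes does to cortical transcription at rest and under inflammation.

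Cortical projection neurons use glutamate as transmitter, and their layer identity is set by a small network of transcription factors. Tbr1 and Fezf2 are best known for specifying corticothalamic and subcerebral projection neurons of layers 6 and 5, Cux1 and Cux2 for the dendrites and synapses of upper layer neurons, and Rorb for the barrels of layer 4. Camk2a and Slc17a7 belong to the working machinery of the mature glutamatergic synapse.

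The values used are those of the authors' deposited tables, each of which gives 1 fold change per gene and no value per mouse, so the spread between mice and the depth of each library are unknown here. Group levels were back-calculated from each fold change and mean level, and are estimates in log2 CPM (read counts scaled to library size) that are not corrected for transcript length, so levels of different genes are not compared. Chd8 itself, measured in whole cortex, had a log2 fold change of 0.02 ± 0.05 (SE) between cKO and control mice after LPS (FDR = 0.901), and it rose with LPS by 0.45 ± 0.07 in cKO mice (FDR = 0.00597) and by 0.34 ± 0.08 in controls (FDR = 0.0312) in the authors' deposited tables, and whole-cortex RNA, which holds the Chd8 RNA of all cell types, gives no check of a deletion in astrocytes. The Y-linked gene Ddx3y, picked once its values were known, was unevenly spread over the groups and had a log2 fold change of 10.87 ± 2.63 for LPS in controls (FDR = 0.0351) and -0.16 ± 1.30 for LPS in cKO mice (FDR = 0.941) in the authors' deposited tables. Its estimated level was lowest in control saline mice, at -3.20 log2 CPM against 5.77 to 6.04 in the other groups. Its cKO minus control estimate after saline was 12.45, and its difference of LPS responses was -11.03 (FDR = 0.472). These values do not match the estimated levels of Ddx3y in size, so its levels are rough. Xist, transcribed from the inactive X chromosome, had 1.56 for LPS in cKO mice (FDR = 0.598) and -0.14 in controls (FDR = 0.938) in the authors' deposited tables. Between genotypes after LPS, Ddx3y had 1.42 ± 1.70 (FDR = 0.764) and Xist -1.21 ± 1.76 (FDR = 0.810), as deposited by the authors. Xist levels were estimated at 6.14 (cKO LPS), 4.54 (cKO saline), 7.36 (control LPS) and 7.47 log2 CPM (control saline). The part of these transcripts' imbalance in the results was not tested. An uneven mix of sexes cannot be told apart here from LPS in controls, or from genotype in the estimates after saline. Nor can it be told apart from genotype after LPS or in the difference of the LPS responses. In bulk tissue, fewer cells of a type and less RNA per cell cannot be told apart.

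After LPS, Camk2a and Tbr1 rose in both genotypes, and the other 6 genes did not pass the threshold in either one. The threshold was an edgeR FDR under 0.05, adjusted across the 13784 rows of the authors' deposited table. In cKO mice 2 of 8 genes rose and 0 fell, where 19.5% of all genes passed, 10.9% upward and 8.52% downward. In controls 2 of 8, again Camk2a and Tbr1, rose and 0 fell, where 9.76% of all genes passed, 6.46% upward and 3.31% downward. Unadjusted p-values were under 0.05 for 4 of 8 genes in cKO mice (35.8% of all genes) and 2 of 8 in controls (28.9%). Of all genes, 3.68% rose in both comparisons. None of the 8 passed between the genotypes after LPS (0.00725% of all genes did, by edgeR, with 1 of 8 at an unadjusted p under 0.05, against 12.3% of all genes). None passed for the difference of the LPS responses either, with 0 of 8 at an unadjusted p under 0.05, against 6.52% of all genes. There 0.00725% of all genes passed, and with standard errors from F 103 genes passed, none of them among the 8.

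**Figure D1:**
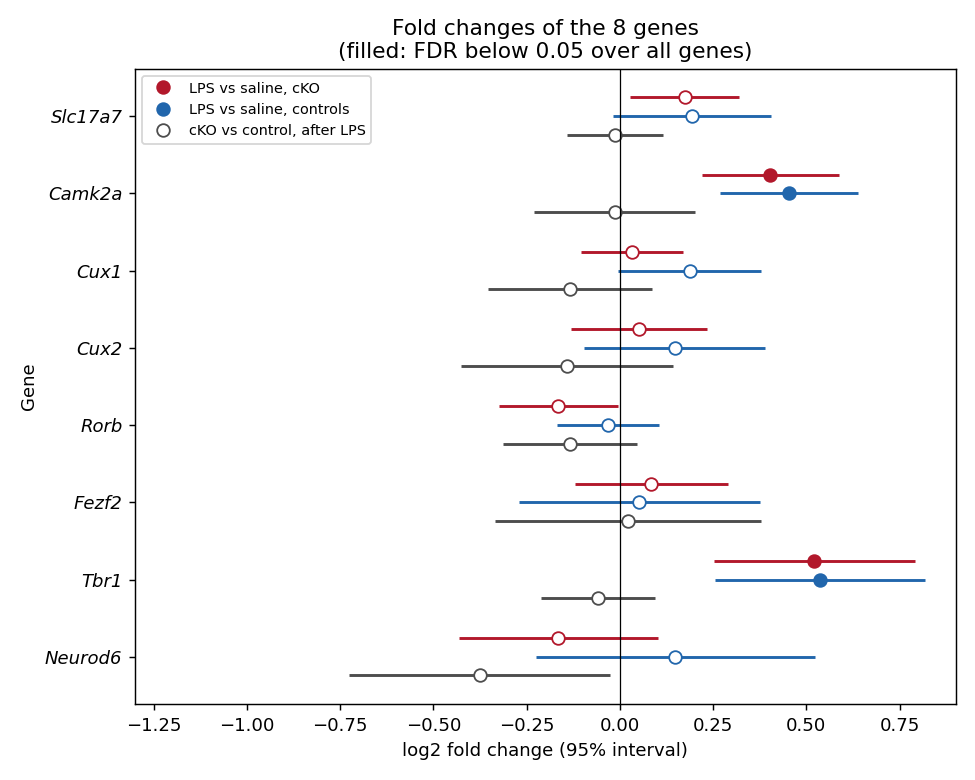
Each gene's log2 fold change (horizontal axis) in the 3 deposited comparisons, with the 95% interval as a line; filled points passed an FDR below 0.05 over all genes. Camk2a and Tbr1 stand to the right of 0 in both LPS comparisons, and the intervals of the genotype comparison include 0 for every gene except Neurod6.

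Camk2a encodes the alpha subunit of calcium/calmodulin-dependent kinase II, the abundant kinase of the postsynaptic density of excitatory neurons. Its estimated level was 10.23 log2 CPM in cKO mice given LPS and 9.83 in cKO mice given saline, against 10.24 in controls given LPS and 9.79 in controls given saline. Both LPS groups were therefore high and both saline groups low, with the genotypes side by side. The authors' deposited tables gave a log2 fold change of 0.40 ± 0.08 in cKO mice (1.32-fold, 95% interval 0.22 to 0.59, FDR = 0.0132) and 0.45 ± 0.08 in controls (1.37-fold, 0.27 to 0.64, FDR = 0.0124). These values lay at the 89.8th and 92.9th percentiles of all genes. The responses of the genotypes differed by -0.05 (95% interval -0.39 to 0.29, FDR = 0.977), so the data leave differences within that interval unresolved.

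Tbr1 encodes a T-box transcription factor that gives layer 6 neurons their corticothalamic identity and is associated with autism in people, as is CHD8. Its estimated level was 6.24 log2 CPM in cKO mice given LPS and 5.71 in cKO mice given saline, against 6.29 and 5.76 in the matching control groups. The pattern was that of Camk2a, with LPS groups high and saline groups low in both genotypes. Per the authors' deposited tables, Tbr1 rose by 0.52 ± 0.12 in cKO mice (1.44-fold, 95% interval 0.25 to 0.79, FDR = 0.0193) and by 0.54 ± 0.13 in controls (1.45-fold, 0.26 to 0.82, FDR = 0.0322), the highest values of the 8 genes in both comparisons. The difference between these responses was -0.02 (95% interval -0.48 to 0.45, FDR = 0.993).

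After subtracting the trend of fold change on GC content and transcript length together, Camk2a had 0.29 in cKO mice (adjusted p = 0.0644) and 0.34 in controls (adjusted p = 0.0526), and Tbr1 had 0.43 (adjusted p = 0.0525) and 0.45 (adjusted p = 0.0616), so the 4 calls ended while the direction held. All 4 also ended under the stricter Benjamini-Yekutieli adjustment, which leaves 82 genes called in cKO mice and 171 in controls.

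**Figure D2:**
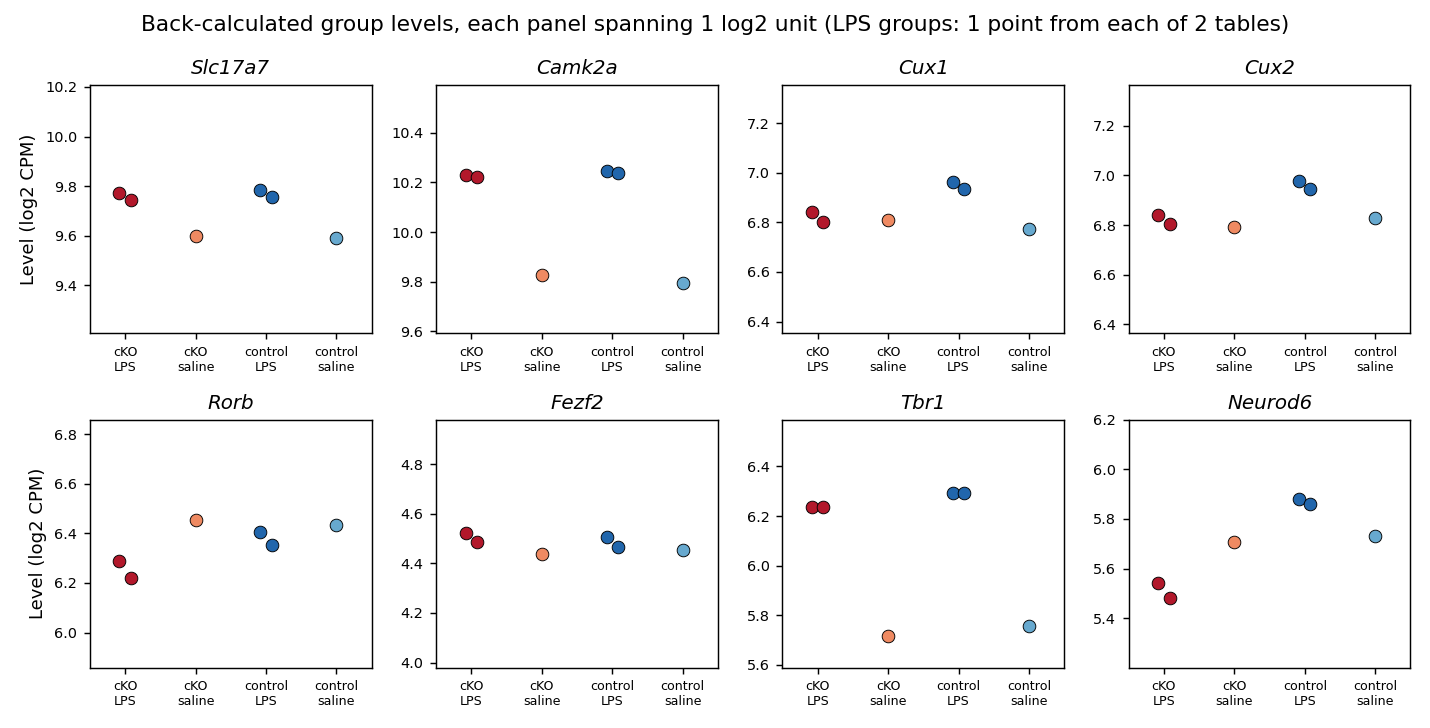
Estimated level of each gene in log2 CPM (vertical axis, 1 log2 unit per panel) in cKO LPS, cKO saline, control LPS and control saline mice; each LPS group has a point from each of the 2 tables that hold it. The LPS points lie above the saline points of both genotypes for Camk2a and Tbr1, and for Neurod6 the cKO LPS points, at 5.54 and 5.48, are the lowest of their panel.

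Slc17a7 encodes VGLUT1, the vesicular glutamate transporter of most cortical excitatory terminals. The estimated level was 9.76 log2 CPM in cKO mice given LPS and 9.60 in cKO mice given saline, against 9.77 and 9.59 in the matching controls. LPS groups were again the higher ones in both genotypes, by less than for Camk2a. In the authors' deposited tables the log2 fold change was 0.17 ± 0.07 in cKO mice (FDR = 0.0876) and 0.19 ± 0.10 in controls (FDR = 0.208), neither of which passed. With fold changes centred on the median of genes at or above 4 log2 CPM, the value in cKO mice became 0.20 and passed (adjusted p = 0.0486). After subtraction of the GC and length trend it became 0.034 in cKO mice (adjusted p = 0.778) and 0.092 in controls (adjusted p = 0.584).

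The upper layer pair differed little between groups. Cux1 and Cux2 encode CUT-type homeodomain factors that shape dendrites, spines and synapses of layer 2/3 and 4 neurons; Cux1 is also expressed outside neurons. For Cux1 the authors' deposited tables gave 0.03 ± 0.06 for LPS in cKO mice (FDR = 0.734) and 0.19 ± 0.09 in controls (FDR = 0.182). For Cux2 they gave 0.05 ± 0.08 (FDR = 0.677) in cKO mice and 0.15 ± 0.11 in controls (FDR = 0.404). With the GC and length trend subtracted, Cux2 turned to -0.067 in cKO mice and -0.0030 in controls, and Cux1 had 0.0024 in cKO mice and 0.081 in controls, so the sign of Cux2 and the size of Cux1 depend on the setting. The estimated level of Cux1 was 6.82 log2 CPM in cKO LPS, 6.81 in cKO saline, 6.95 in control LPS and 6.77 in control saline mice, and that of Cux2 was 6.82, 6.79, 6.96 and 6.83 in the same order. For both genes the control LPS group was the highest and the remaining groups lay close together. The difference of the LPS responses was -0.16 for Cux1 (95% interval -0.38 to 0.07, FDR = 0.862) and -0.09 for Cux2 (-0.38 to 0.19, FDR = 0.942).

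Rorb, a retinoic acid receptor-related orphan receptor that organises layer 4, was the gene with the lowest response in controls. The authors' deposited tables listed -0.17 ± 0.07 for LPS in cKO mice (unadjusted p = 0.0443, FDR = 0.129) and -0.03 ± 0.06 in controls (FDR = 0.773). Estimated levels were 6.25 log2 CPM in cKO LPS and 6.45 in cKO saline mice, against 6.38 and 6.44 in control LPS and control saline mice, so the cKO LPS group was the lowest and the other groups lay close together. Rorb had -0.087 in cKO mice and -0.046 in controls once the GC and length trend was subtracted. Fezf2, a zinc finger factor that specifies subcerebral projection neurons of layer 5, had 0.08 ± 0.09 for LPS in cKO mice (FDR = 0.543) and 0.05 ± 0.14 in controls (FDR = 0.842) in the authors' deposited tables, with estimated levels between 4.44 and 4.50 in all 4 groups. Fezf2 turned to -0.05 and -0.03 after the GC and length trend was subtracted, so its sign depends on the setting.

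Neurod6, a basic helix-loop-helix factor of the NeuroD family that marks pyramidal neurons, was the gene of the 8 whose values had opposite signs in the genotypes. Its estimated level was 5.51 log2 CPM in cKO LPS and 5.71 in cKO saline mice, against 5.87 in control LPS and 5.73 in control saline mice. The cKO LPS group was thus the lowest and the control LPS group the highest. The authors' deposited tables gave -0.16 ± 0.12 for LPS in cKO mice (FDR = 0.349) and 0.15 ± 0.17 in controls (FDR = 0.599). Neither passed, and after subtraction of the GC and length trend they were -0.0998 in cKO mice and 0.21 in controls. The difference of the responses was -0.31 (95% interval -0.74 to 0.11, FDR = 0.844) and did not pass.

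Promoters of Tbr1 and Neurod6 are shown because Tbr1 rose with LPS in both genotypes and Neurod6 had the lowest value between genotypes; the capitals mark E-boxes, the CANNTG motif bound by NeuroD and other helix-loop-helix factors. They are the 250 bases before the annotated start in RefSeq on build GRCm38.p6 (the authors' notes name GRCm39), written in the direction of transcription. Tbr1 lies at chr2:61804203-61804452 on the plus strand and Neurod6 at chr6:55681264-55681513 on the minus strand.
Tbr1: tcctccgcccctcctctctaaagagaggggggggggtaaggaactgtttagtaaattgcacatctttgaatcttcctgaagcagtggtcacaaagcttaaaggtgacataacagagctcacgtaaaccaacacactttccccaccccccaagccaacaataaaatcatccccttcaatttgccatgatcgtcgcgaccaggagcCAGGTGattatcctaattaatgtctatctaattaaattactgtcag
Neurod6: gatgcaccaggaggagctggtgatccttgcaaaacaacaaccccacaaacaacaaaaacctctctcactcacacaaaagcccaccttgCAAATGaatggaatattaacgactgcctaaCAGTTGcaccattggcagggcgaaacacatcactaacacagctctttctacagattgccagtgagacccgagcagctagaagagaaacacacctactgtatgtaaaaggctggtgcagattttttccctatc
The Tbr1 window held 1 E-box, 40 bases before the start, and 45.2% G and C. Neurod6 held 2 E-boxes, the nearer one 126 bases before the start, and 46.0% G and C. Of 32841 promoter windows of this length, 66.2% held at least 1 E-box on either strand, so its presence sets neither gene apart. The T-box core motif GGTGTGA, read on both strands, was found in 3.33% of all windows and in neither of these, and the GC box GGGCGG, likewise on both strands, in 32.7% of all windows, in Tbr1 once, apart from its E-box, and in Neurod6 not at all. RefSeq promoters matched 7 of the 8 genes, Camk2a being the gene without a match.

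Across the 8 genes, the LPS responses of the genotypes, which share no library, had a Pearson r of 0.905 and a Spearman rho of 0.786 (n = 8 genes, which are not independent replicates and share libraries and base composition). Over all 13784 genes r was 0.676 and rho 0.630. The sign was the same in both genotypes for 7 of 8 genes, Neurod6 being the exception, against 74.2% of all genes. The median response of the 8 genes was 0.07 in cKO mice and 0.17 in controls, where the median of all genes was 0.00 in both; the medians became -0.022 in cKO mice and 0.087 in controls once the GC and length trend was subtracted.

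**Figure D3:**
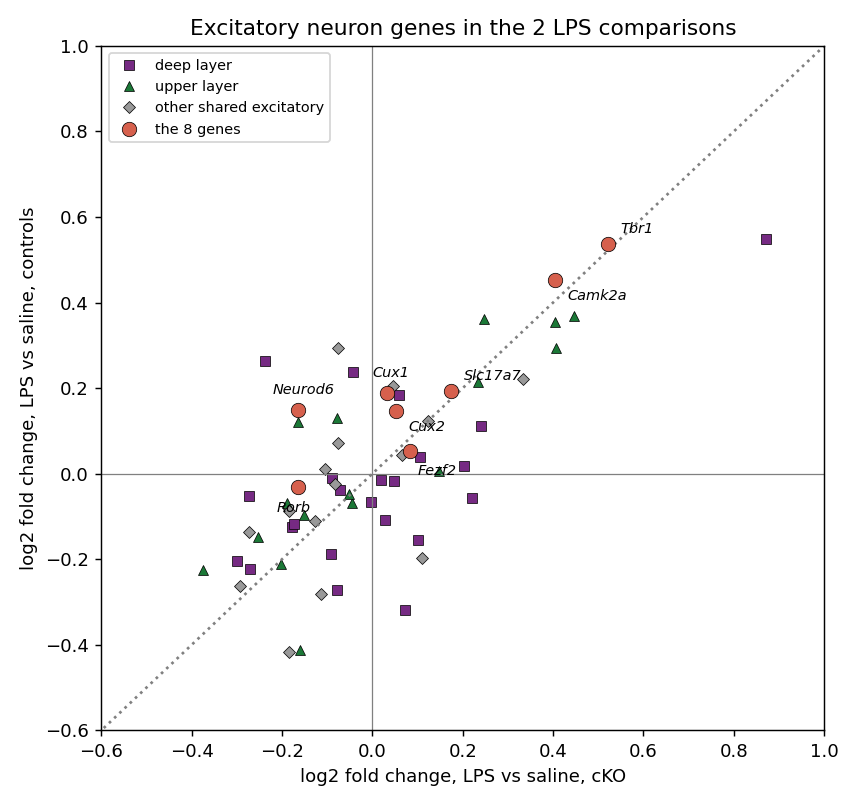
Log2 fold change with LPS in cKO mice (horizontal) against that in controls (vertical) for the 8 genes (large circles) and the other excitatory neuron lists, 1 point a gene; the dotted line marks equal responses. Tbr1 and Camk2a lie near the dotted line at 0.52 and 0.40 on the horizontal axis, and Neurod6 lies left of 0 on it and above 0 on the vertical one.

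The GC content of the 8 genes is given because the responses of all genes followed a trend with it and with transcript length. In the longest annotated transcript, G and C made up 41.6% in Rorb and 41.9% in Neurod6, the genes below 0 in cKO mice, and 49.95 to 56.6% in the other 6. The trend over all genes at the GC content and length of Rorb and Neurod6 was -0.08 and -0.07 in cKO mice, and 0.03 to 0.14 for the other 6. Tbr1 and Camk2a exceeded their own trend values of 0.09 and 0.11 by the margins given above, while Cux1 lay on its trend (0.03) and Cux2 (0.12) and Fezf2 (0.13) lay below theirs. In controls Neurod6 stood at 0.15 above a trend value of -0.06, and Fezf2 at 0.05 below one of 0.08.

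**Figure D4:**
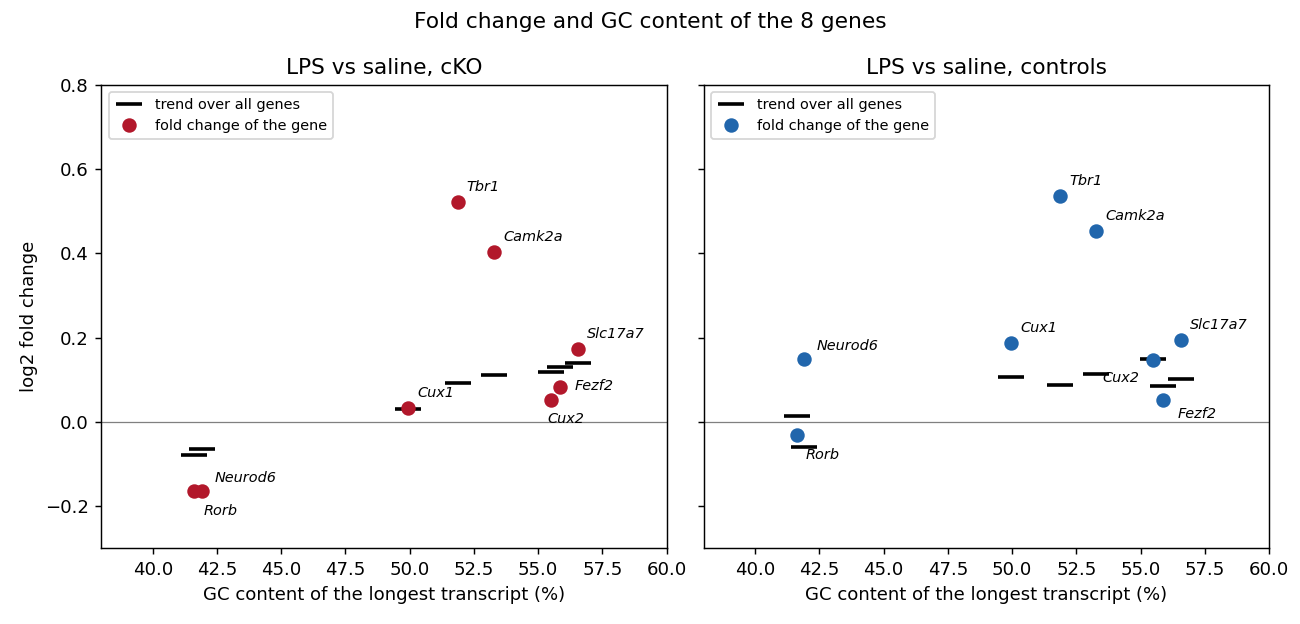
GC content of the longest annotated transcript in percent (horizontal) and log2 fold change with LPS (vertical) for the 8 genes in cKO mice (left) and controls (right); black bars give the trend over all genes at each gene's GC content and length. Tbr1 and Camk2a stand 0.29 to 0.45 above their bars in both panels.

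After LPS, none of the 8 genes passed between cKO and control mice in the authors' deposited table of the genotypes. There 7 of 8 lay below 0 (6826 of all 13784 genes did), with a median of -0.10, against 0.00 for all genes. Once the GC and length trend was subtracted, the median became -0.049, Cux1 had -0.046, Cux2 -0.089, Rorb -0.051 and Fezf2 -0.0011, while Neurod6 had -0.38. This table uses the same LPS libraries as the tables above. Neurod6 had the lowest value, -0.38 ± 0.15 (0.771-fold, 95% interval -0.73 to -0.03, unadjusted p = 0.0383, FDR = 0.383), at the 5.24th percentile of all genes. Cux2 followed at -0.14 ± 0.12 (FDR = 0.669), Cux1 at -0.13 ± 0.10 (FDR = 0.598) and Rorb at -0.13 ± 0.08 (FDR = 0.524) in the authors' deposited table. Tbr1 had -0.06 ± 0.07, Camk2a -0.01 ± 0.09, Slc17a7 -0.01 ± 0.06 and Fezf2 0.02 ± 0.16, with FDRs of 0.755 to 0.967. The intervals were narrowest for Slc17a7 (-0.14 to 0.11) and widest for Fezf2 (-0.33 to 0.38).

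After saline, no deposited table compared the genotypes, so the cKO minus control difference was estimated from the 3 fold changes and has no test. The estimates for the 8 genes lay between -0.06 (Neurod6) and 0.04 (Camk2a), with 4 above and 4 below 0 and a median of 0.00. These lie between the 19.4th and 68.5th percentiles of all genes.

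The other excitatory neuron lists are read against all genes, of which 10.9% rose and 8.52% fell in cKO mice and 6.46% rose and 3.31% fell in controls. Of 15 further genes shared across layers, 1 rose and 1 fell in cKO mice and 0 rose and 1 fell in controls. Slc30a3, the synaptic vesicle zinc transporter, rose by 0.33 ± 0.06 in cKO mice (FDR = 0.0103), and Tyro3, a receptor tyrosine kinase, fell by 0.27 ± 0.05 there (FDR = 0.0118) in the authors' deposited table. Bhlhe22, a helix-loop-helix factor of layer identity, had -0.42 ± 0.11 in controls (FDR = 0.0461) in the authors' deposited table. The list's medians were -0.08 in cKO mice and -0.02 in controls.

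Beside the same shares of all genes, of 16 further upper layer genes, 2 rose and 2 fell in cKO mice and none passed in controls (medians -0.06 and -0.02). Unc5d, a netrin receptor, rose by 0.41 ± 0.10 and Plxnd1, a semaphorin receptor, by 0.23 ± 0.07, while the homeobox genes Pou3f3 and Lhx2 had -0.25 ± 0.08 and -0.20 ± 0.06, with FDRs of 0.0217 to 0.0461 in the authors' deposited table. Of 23 further deep layer genes, 1 rose in cKO mice and none passed in controls (medians 0.00 and -0.05). That gene was Rprm, a marker of layer 6, at 0.24 ± 0.07 in cKO mice (FDR = 0.0464) in the authors' deposited table. Foxp2, Tle4 and Sox5, factors of the deep layers like Tbr1, had -0.04, -0.17 and -0.18 in cKO mice and 0.24, -0.12 and -0.12 in controls, none of which passed; these 3 were named after their values were seen. None of these lists had a gene past the threshold for the difference of the LPS responses or between genotypes after LPS. The genes named next, chosen after their values were seen, had an unadjusted p under 0.05 between genotypes after LPS. In the authors' deposited table Tyro3 (-0.21), Kcnh5 (-0.34) and Stard8 (-0.21) lay below 0 and Bcl6 (0.29), Crym (0.54) and Bcl11b (0.35) above 0, with FDRs of 0.282 to 0.405.

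Relatives of the 8 genes were read in the same way. Of 12 relatives, 8 had a row, and none passed in controls. Among the other subunits of the kinase, Camk2b had 0.02 in cKO mice and -0.02 in controls, Camk2g 0.04 and -0.10, and Camk2d 0.27 and 0.01 in the authors' deposited tables, and the kinase inhibitor Camk2n1 had -0.14 and 0.08. The transporters VGLUT2 and VGLUT3, encoded by Slc17a6 and Slc17a8, had -0.10 and -0.18 in cKO mice and -0.26 and -0.18 in controls, with FDRs of 0.0865 to 0.678 in the authors' deposited tables.

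**Figure D5:**
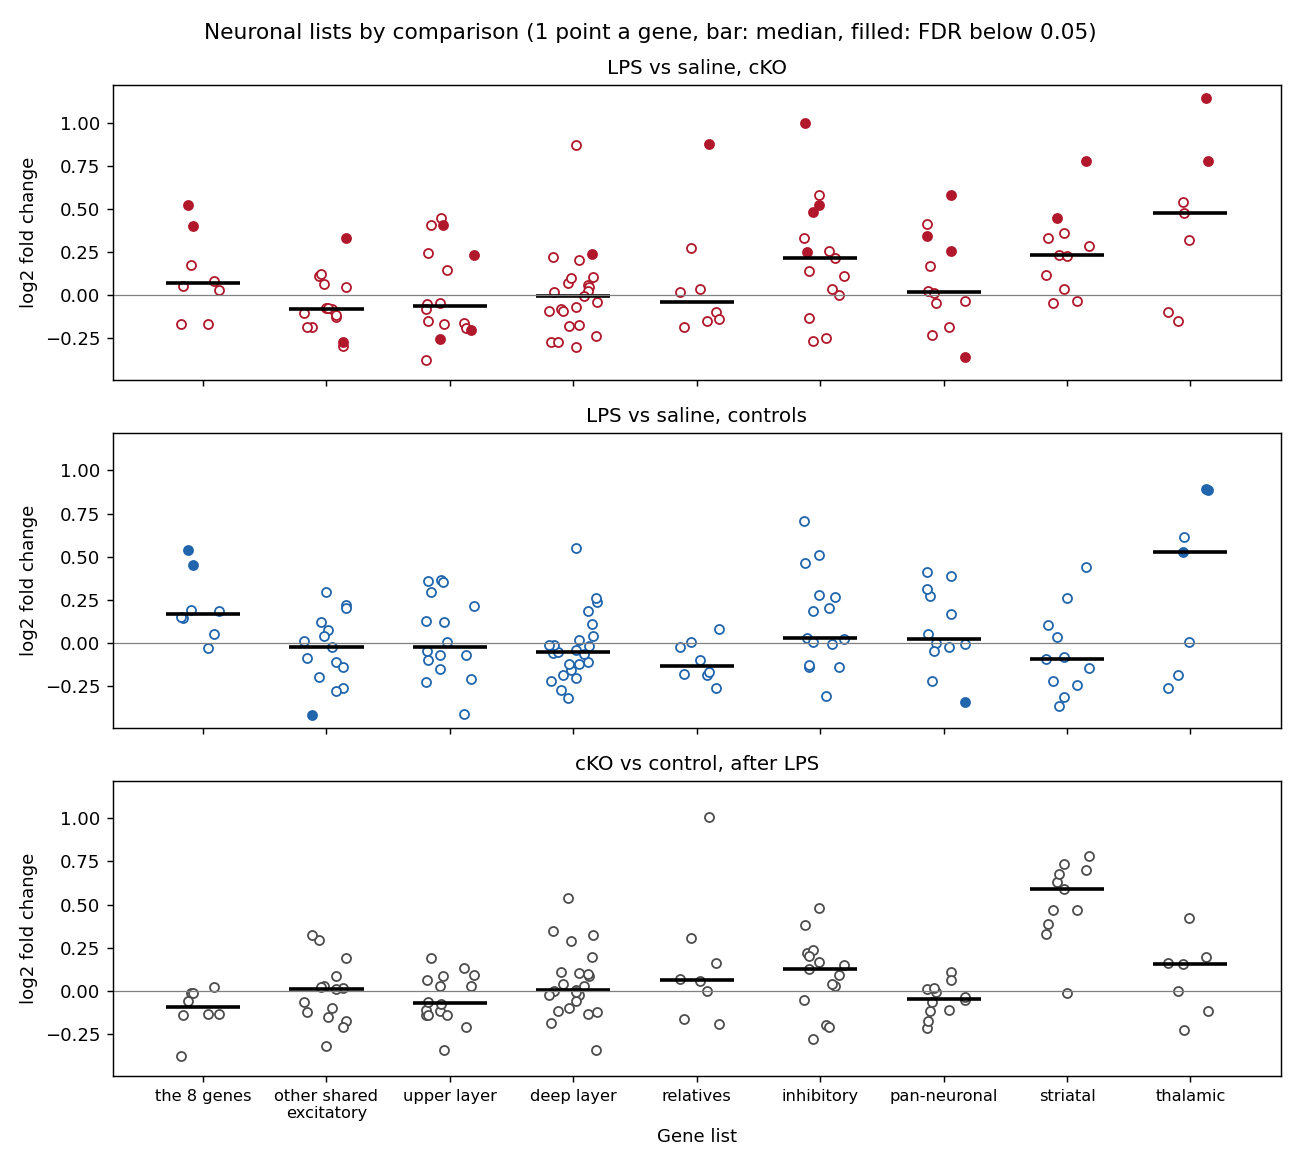
Log2 fold change (vertical) of each gene of 9 neuronal lists in the 3 deposited comparisons, 1 point a gene, with bars at the medians and filled points past an FDR below 0.05. The striatal markers have a median of 0.59 between genotypes after LPS, against -0.10 for the 8 genes and -0.07 for upper layer genes. The medians of the other shared and of the deep layer genes are both 0.01 there.

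Markers of other cells and regions moved in the same tables, and their part in the results was not tested. The shares over all genes were 10.9% up and 8.52% down in cKO mice, and 6.46% up and 3.31% down in controls. Of 12 pan-neuronal markers, 3 rose and 1 fell in cKO mice, with Rbfox3, the neuronal nuclear antigen NeuN, at 0.58 ± 0.09 (FDR = 0.00653), Stmn2 at 0.35 ± 0.06, Syp at 0.26 ± 0.07 and the tubulin gene Tubb3 at -0.36 ± 0.10 (FDR = 0.0310) in the authors' deposited table. In controls 0 rose and 1 fell, Tubb3 at -0.34 ± 0.06 (FDR = 0.0138). Rbfox3 had 0.39 (FDR = 0.0777), Stmn2 0.31 (FDR = 0.103) and Syp 0.17 (FDR = 0.198) in controls in the authors' deposited table. Of 15 inhibitory neuron markers, 4 rose in cKO mice, including the vesicular GABA transporter Slc32a1 at 0.52 ± 0.10 (FDR = 0.0125), while none passed in controls, per the authors' deposited tables. The other 3 were the GABA-synthesising enzyme gene Gad2 at 0.25 ± 0.07 and the homeobox genes Dlx1 at 0.49 ± 0.14 and Dlx2 at 1.00 ± 0.22, per the authors' deposited table. Dlx2 averaged only 0.80 log2 CPM in that comparison. Slc32a1 had 0.28, Gad2 0.03, Dlx1 0.19 and Dlx2 0.46 in controls, with FDRs of 0.211 to 0.752 in the authors' deposited table. Of 11 striatal projection neuron markers, 2 rose in cKO mice, the dopamine receptor gene Drd2 at 0.78 ± 0.23 and Ppp1r1b at 0.45 ± 0.14 in the authors' deposited table, and none passed in controls. Drd2 had 0.44 (FDR = 0.589) and Ppp1r1b 0.04 (FDR = 0.904) in controls in the authors' deposited table. For the difference of the LPS responses, no pan-neuronal, inhibitory or striatal marker passed. Of 7 thalamic markers, 2 rose in cKO mice and 3 in controls, while 5 lay above and 2 below 0 in each genotype (medians 0.48 in cKO mice and 0.52 in controls). Tcf7l2 had 1.14 ± 0.31 in cKO mice and 0.89 ± 0.24 in controls, and Synpo2 had 0.78 ± 0.16 and 0.89 ± 0.17, in the authors' deposited tables. Tcf7l2 averaged only 0.80 and 0.66 log2 CPM in the comparisons in cKO mice and controls. Between genotypes after LPS, striatal projection neuron markers lay above 0 in 10 of 11 measured (median 0.59, range -0.01 to 0.78), none past the threshold. Below 0 there were 7 of the 8 genes, but 7 of 15 further shared, 9 of 16 upper layer and 11 of 23 deep layer genes. Over all genes, 6826 of 13784 lay below 0. The estimates of the striatal markers after saline, which have no test, were above 0 in 11 of 11 (median 0.24). Among all genes, 7271 of 13784 of these estimates lay above 0 (median 0.00). The choroid plexus genes Folr1, Aqp1, Kcne2 and Otx2 and the hippocampal genes Dsp, Lct, Tdo2 and Iyd had no row in the tables.

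The genes nearest to Camk2a and Tbr1 over the 3 deposited log2 fold changes, by Euclidean distance among 13017 genes, included Zc3h3 (0.02) and Ctdsp2 (0.03) for Camk2a, and were Prrc1 (0.04), Wnk2 (0.04) and Prrc2c (0.05) for Tbr1. As many as 96 genes lay within 0.1 of Camk2a and 48 within 0.1 of Tbr1, a distance near 1 standard error, so the order among them is not resolved.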

How the data were processed

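Bulk RNA of 18 cortex samples was sequenced from ribosome-depleted, stranded libraries, per the labels' protocols. Cutadapt 3.5, STAR, RSEM and edgeR 3.30.3 with build GRCm39 are named in the submitters' processing notes, with no role or order; how genes were filtered was not stated there. The authors deposited 3 tables of 13784 genes, per the file headers, each holding log2 fold changes, average log2 CPM, F scores, p-values and FDRs; depth per library is unknown. Every library's title says saline; the genotype label, which matches the treatment label, therefore set the groups.

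The headers give no direction. Read as cKO minus control and LPS minus saline, group levels back-calculated with equal library weight differed between tables by an SD of 0.0694 (cKO LPS) and 0.0695 (control LPS); any turned sign gave at least 1 SD of 0.227 or more. Standard errors are the fold change over the root of F; intervals of 95% use degrees of freedom solved from each F and its p-value. The difference of the LPS responses was tested with standard errors from the normal quantile of each deposited p-value, adjusted by Benjamini-Hochberg over all genes (Python 3.11.15, scipy 1.17.1, statsmodels 0.14.6), and the test was checked on simulated tables. GC content and length came from GENCODE M21 (GRCm38) by gene ID for 99.6% of genes; the trend was a spline fit of fold changes limited to 1 in size.

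The 8 genes and all lists were chosen with earlier results of these data known. Named are the 8 genes, up to 4 genes per list and comparison past the threshold, and the 3 genes nearest to each changed gene among those averaging 0 log2 CPM or more; others are values given for context or said to be chosen after their values were seen. Of the 15 lists, the astrocyte, microglia, oligodendrocyte, endothelial, hippocampal and choroid plexus markers are given under the other observations. Some results are not reported here.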

Additional observations from a re-analysis of the deposited data

How the results depend on the processing

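No paired analysis was possible because the deposited tables hold no values per library, and for the same reason no replicate could be left out. The counts of genes changed with LPS, 2 of 8 in each genotype, became 0 of 8 after subtracting the GC and length trend and 0 of 8 with Benjamini-Yekutieli adjustment, in cKO mice and in controls alike. They were 3 of 8 in cKO mice and 2 of 8 in controls at an FDR of 0.10, where 4092 and 2557 of 13784 genes passed, and after centring, where 2712 and 1376 did, and 2 of 8 in each genotype when genes averaged 1 or 4 log2 CPM or more and with a minimum of 1.2-fold. The median in cKO mice moved to -0.0224 with that trend subtracted. The same setting turned Cux2 to -0.0665 in cKO mice and -0.0030 in controls, and Fezf2 to -0.0472 and -0.0323 in those comparisons, to -0.0011 between genotypes and to -0.0149 for the difference of responses; none of these had passed before. Over all genes, the trend setting called 2442 genes in cKO mice and 1646 in controls. The counts for the genotypes after LPS and for the difference of responses were 0 of 8 under every setting tried, also with standard errors from F, under which 103 of 13784 genes passed for the difference in place of 1. The median estimate after saline lay between -0.01 and 0.00 under all 4 paths.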

Other observations

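Glial and vascular markers passed the threshold in the LPS comparisons in which Camk2a and Tbr1 rose, and their part in that rise was not tested. The counts stand beside 10.9% of all genes up and 8.52% down in cKO mice, and 6.46% up and 3.31% down in controls. Of 10 endothelial markers, 5 rose in cKO mice and 8 in controls, led by Vwf, the von Willebrand factor, at 2.04 ± 0.28 in cKO mice and 2.08 ± 0.10 in controls in the authors' deposited tables. Of 10 microglia markers, 3 rose and 2 fell in cKO mice and 5 rose and 0 fell in controls. Csf1r, the receptor that keeps microglia alive, rose by 0.61 ± 0.12 in cKO mice and by 0.94 ± 0.05 in controls, and the purinergic receptor P2ry12 had -0.58 ± 0.12 in cKO mice (FDR = 0.0145) and -0.37 in controls (FDR = 0.0997), per the authors' deposited tables. Of 10 astrocyte markers, 3 fell past the threshold in each genotype and none rose past it. Above 0 were 6 of 10 in cKO mice (median 0.05) and 3 of 10 in controls (median -0.09). Between genotypes after LPS, 6 of 10 lay above 0 (median 0.20) and none passed. There 5 of 10 had an unadjusted edgeR p under 0.05, against 12.3% of all genes. The untested estimates after saline were above 0 for 9 of 10, against 7271 of all 13784 genes. With LPS, the water channel gene Aqp4 fell in both genotypes, at -0.48 ± 0.10 in cKO mice and -0.22 ± 0.05 in controls, in the authors' deposited tables. The glutamate transporters Slc1a3 and Slc1a2, which clear transmitter released by excitatory neurons, had -0.45 ± 0.09 (FDR = 0.0138) and -0.31 ± 0.08 (FDR = 0.0233) in cKO mice, and -0.21 (FDR = 0.134) and -0.08 (FDR = 0.507) in controls, in the authors' deposited tables. The differences of these responses did not pass (FDR = 0.844 for Slc1a3 and 0.816 for Slc1a2). Of 10 oligodendrocyte markers, 1 rose in cKO mice, Myrf at 0.72 ± 0.17 (adjusted p = 0.0195) per the authors' deposited table, while none passed in controls. Myrf had 0.50 in controls (FDR = 0.165) per the authors' deposited table.

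Hippocampal markers, of which 6 of 10 had a row, had medians of 0.36 for LPS in cKO mice, 0.08 for LPS in controls and 0.34 between genotypes after LPS, and none passed. The 3 measured choroid plexus markers lay below 0 with LPS in both genotypes (medians -0.40 in cKO mice and -0.91 in controls), and none passed.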
